A study of Homo sapiens with 19 samples.

Results

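MYC, PVT1 and CCDC26 were taken by name from the GENCODE annotation of hg38, together with all peaks that lie in chr8:126000000-131000000, a stretch of 5 Mb that holds the 3 genes. H3K27ac (acetylation of lysine 27 of histone H3, a mark of active promoters and enhancers) was profiled by ChIP-seq in 4 human leukaemia cell lines, and the stretch held 18 of the 20814 H3K27ac peaks of HL-60, 71 of 35206 in Molm13, 79 of 37606 in OCI-AML3 and 118 of 37484 in K562. It held 0 of the 395 peaks of dCas9 (catalytically dead Cas9) in K562.

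MYC encodes a basic helix-loop-helix transcription factor that binds DNA with its partner MAX and drives growth and proliferation genes. PVT1 is a long non-coding RNA gene that starts downstream of MYC, is often gained together with it in tumours, and holds enhancers as well as several microRNA genes. CCDC26 is a long non-coding RNA gene further downstream, and its 5′ part holds a cluster of enhancers that is known to regulate MYC in blood cells and in acute myeloid leukaemia (AML).

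HL-60 and Molm13 are AML lines and were profiled without transduction. HL-60 is known to carry extra copies of MYC, and copy number was not measured here in any line. OCI-AML3, also an AML line, and K562, a line of chronic myelogenous leukaemia with erythroid and megakaryocytic features, carried dCas9 fused to the KRAB repressor domain (with mCherry) and an empty sgRNA vector (with BFP), and transduced cells were sorted. The dCas9 list came from K562 cells with the same fusion and 4 sgRNAs against LTR2B, a family of endogenous retroviral long terminal repeats. Each list came from 1 library of 1 cell line, so no value carries a replicate error, no test between lines is given, and vector and line cannot be told apart. Read depth was unknown, because the lists give peaks and not reads. Fold enrichment over the local background was therefore compared only within a list, as a percentile (the share of that list's peaks with a lower fold).

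By number of genes with a peak, the erythroid, megakaryocytic and myeloid markers followed the labels, though members of each list had peaks in other lines. Some lymphoid and epithelial markers had peaks as well. H3K27ac peaks lay within 500 bp of an annotated transcription start site (TSS) of 12 of 12 erythroid and megakaryocytic marker genes in K562 against 4, 5 and 4 in HL-60, Molm13 and OCI-AML3. EPOR, TFRC and GFI1B had one in each AML line. Of 12 myeloid marker genes, 9, 11 and 12 had such a peak in HL-60, Molm13 and OCI-AML3 and 6 in K562. In K562 CEBPA, CEBPE, MPO, ELANE, ITGAM and FLT3 had none, while SPI1, AZU1, PRTN3, CD33, CSF3R and LYZ had one. HOXA9, HOXA10 and MEIS1 had one in Molm13 and OCI-AML3, none had one in HL-60, and MEIS1 alone had one in K562. Of 5 lymphoid markers 2 or 3 had a peak in every line, and of 4 epithelial markers 1 had one in each AML line and 4 in K562. For comparison, 44.7% of 20033 protein-coding genes had a TSS peak in HL-60, 57.7% in OCI-AML3 and 53.9% in Molm13, with 55.9% in K562. The myeloid share of 50% in K562 was thus near that of all protein-coding genes.

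H3K27ac in the 5 Mb was concentrated over MYC, over the 5′ part of CCDC26 and over CYRIB downstream of it. In K562 it also lay over the body of PVT1, and in OCI-AML3 over part of ASAP1 beyond CYRIB. The OCI-AML3 peaks covered 30.6% of chr8:130300001-130350000 within ASAP1, against 24.0% of chr8:129950001-130000000 within CYRIB. That part of ASAP1 was covered to 11.7% in Molm13, 6.93% in K562 and 0% in HL-60. The peaks covered 39.5 kb in HL-60, which is 0.790% of the stretch against 0.780% of the genome. In Molm13 they covered 186 kb, or 3.71% against 1.89%. The OCI-AML3 peaks covered 201 kb, or 4.03% against 2.27%. K562 had the longest cover with 330 kb, or 6.60% against 2.49%. Among 589 windows of 5 Mb tiled over the genome, the stretch ranked 30 by covered length in K562, 70 in Molm13, 79 in OCI-AML3 and 214 in HL-60. Chromosome 8 as a whole held few HL-60 peaks, at 357 or 1.72% of the list. K562 had 4.09% of its peaks on this chromosome, Molm13 4.72% and OCI-AML3 6.28%. Whether the low HL-60 counts and cover of the stretch, its genes and its gaps go beyond this chromosome-wide difference was not tested. Peaks of 10 kb or wider numbered 1 in HL-60, 4 in OCI-AML3 and 3 in Molm13, with 5 in K562, and that width was reached by 0.077% of all HL-60 peaks, 0.8% of Molm13, 1.08% of OCI-AML3 and 1.53% of K562 peaks. The plot of all peaks along the stretch shows the gap of 447 kb between PVT1 and CCDC26, which held 3 peaks in K562, 2 each in Molm13 and OCI-AML3 and 0 in HL-60.

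**Figure D1:**
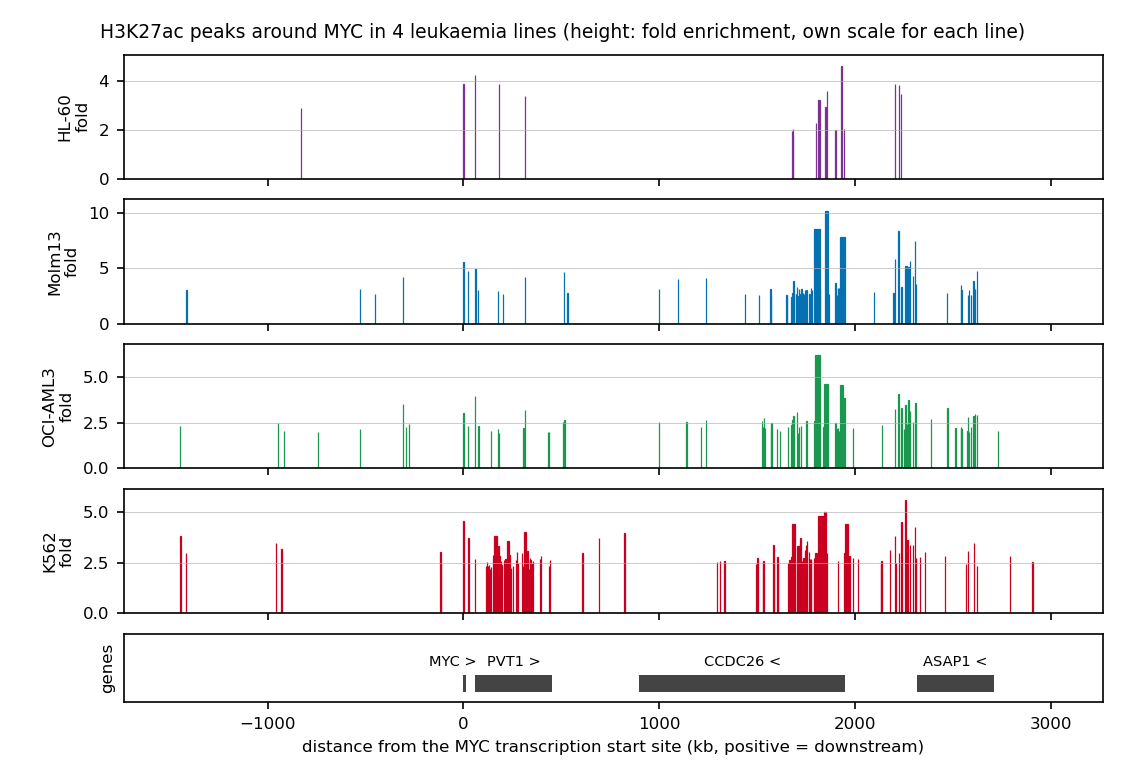
H3K27ac peaks of HL-60, Molm13, OCI-AML3 and K562 by distance from the MYC TSS (x axis, kb) and fold enrichment (y axis, own scale in each panel, 1 library per line), with gene bodies below and arrows for strand. The 4 lines share peaks at MYC, at the start of PVT1, over the 5′ part of CCDC26 and beyond it, while the dense block over the PVT1 body appears in the K562 panel.

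MYC (ENSG00000136997.22, chr8:127735434-127742951, plus strand) had 1 broad peak over its promoter and the first part of the gene in each line. In HL-60 the peak was 4.74 kb wide with a fold enrichment of 3.90. The Molm13 peak was 5.50 kb wide with a fold of 5.52. In OCI-AML3 it was 4.92 kb wide with a fold of 3.05. K562 had the widest MYC peak, at 6.40 kb, with a fold of 4.57. Within its own list the peak stood at the 96.96th percentile of fold in K562, the 76.8th in Molm13, the 59.1st in HL-60 and the 54.2nd in OCI-AML3. With 1 library per line this order has no spread to be set against. The ranking changed with the measure: by q-value the MYC peak reached the 99.1st percentile in HL-60, the 97.5th in K562, the 85.6th in Molm13 and the 82.8th in OCI-AML3.

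The MYC peaks lay over the same sequence. The peak covered 48.1% of the gene in HL-60, 55.1% in OCI-AML3 and 57.2% in Molm13, with 69.9% in K562, where the 5429 annotated genes of 5 to 10 kb had a median of 0% in each line. All of the MYC gene sequence covered in HL-60 was also covered in the 3 other lines. The peaks had GC contents of 55.2% to 58.2% and an observed to expected CpG ratio of 0.678 to 0.767. In comparison, peaks of the stretch away from any TSS had a median CpG ratio of 0.139 in HL-60, 0.151 in OCI-AML3 and 0.159 in Molm13, with 0.201 in K562. Peaks at a TSS in the whole lists had medians of 0.702, 0.622 and 0.628 in the same AML lines and 0.541 in K562. The MYC peaks were thus closer to other TSS peaks than to peaks away from a TSS. The same MYC peak reached a TSS of CASC11, a long non-coding RNA gene on the opposite strand, so that the signals of both promoters cannot be told apart.

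Between MYC and PVT1, 1 peak was called about 25 kb downstream of the MYC TSS in 3 lines. It was 1.32 kb wide with a fold of 4.76 in Molm13, 1.08 kb with a fold of 2.34 in OCI-AML3 and 1.91 kb with a fold of 3.71 in K562. HL-60 had no peak in this gap of 51.6 kb.

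PVT1 (ENSG00000249859.14, chr8:127794526-128187101, plus strand, 59.1 kb downstream of the MYC TSS) had a peak at its outermost TSS in all 4 lines. The fold there was 4.26 in HL-60, 3.94 in OCI-AML3 and 4.96 in Molm13, with 2.69 in K562. These values stood at the 66.5th percentile of the list in HL-60, the 79.6th in OCI-AML3 and the 71.0th in Molm13, with the 37.3rd in K562. By fold, K562 thus had the highest rank of the 4 lines at MYC and the lowest at the outermost TSS of PVT1. Taking the strongest peak at any PVT1 TSS instead, K562 ranked highest, at the 89.8th percentile. The peak at the outermost TSS also covered the start of MIR1204, a microRNA gene within PVT1.

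Over the rest of PVT1 the lines differed in extent. The body of the gene held 3 peaks in HL-60, 9 in OCI-AML3 and 5 in Molm13, with 38 in K562. The low HL-60 count stands beside the few peaks of that line on all of chromosome 8, given above. The covered length was 3.61 kb in HL-60, 11.1 kb in OCI-AML3 and 9.02 kb in Molm13, with 106 kb in K562. Peaks took up 27.1% of the gene in K562, against 0.920% in HL-60 and 2.30% and 2.83% in Molm13 and OCI-AML3. Among the 5157 annotated genes of 100 kb or longer, PVT1 ranked 43 by covered share in K562, and 1227, 1283 and 1381 in HL-60, Molm13 and OCI-AML3. The median of these genes was 0.228% to 0.829% in the 4 lines.

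**Figure D2:**
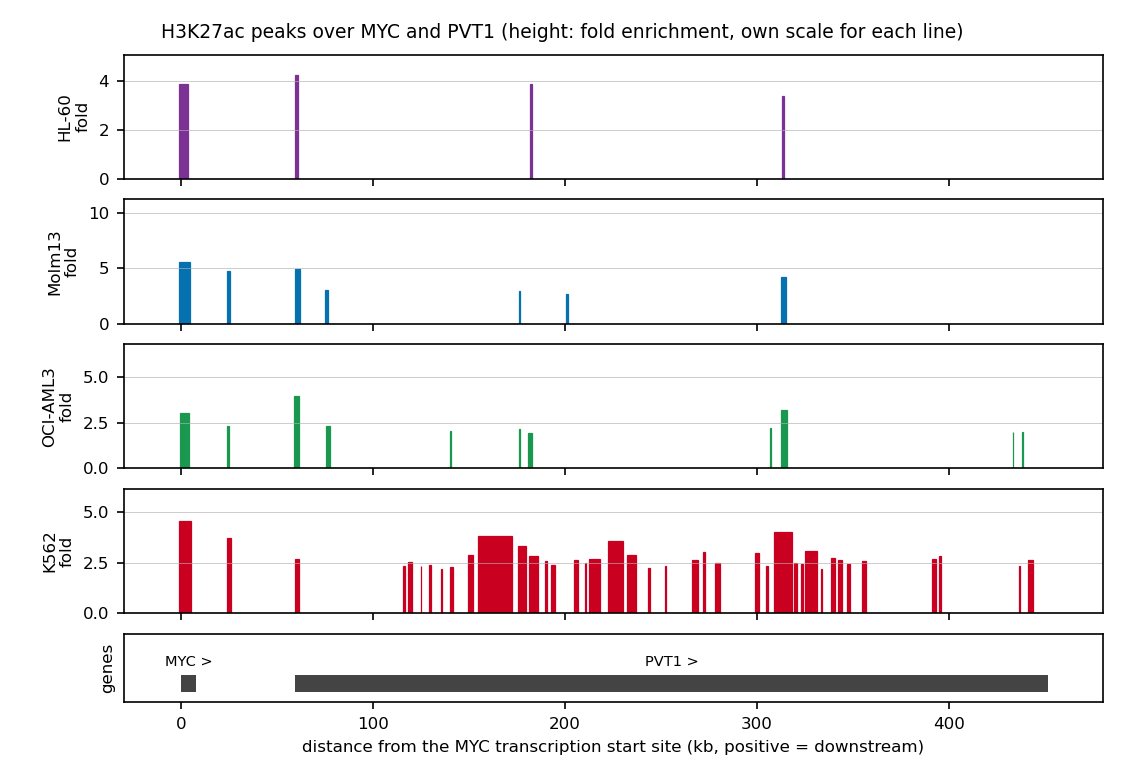
H3K27ac peaks over MYC and PVT1 by distance from the MYC TSS (x axis, kb) and fold enrichment (y axis, own scale in each panel). K562 has 38 peaks in the PVT1 body against 3, 5 and 9 in HL-60, Molm13 and OCI-AML3, and the peak at about 314 kb is present in all 4 panels.

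The K562 block began 115 kb downstream of the MYC TSS and included a peak of 17.7 kb (fold 3.79, 85.2nd percentile) that no AML line overlapped. The K562 peaks of the body had a median fold of 2.58 and a median percentile of 26.8 in the list. Of the 38 peaks, 5 were overlapped by a peak of an AML line (13.2%, Wilson 95% interval 5.75% to 27.3%), against 44% of the whole K562 list. Restricting every list to q-values below 0.001 left 9 peaks over 14.2% of the gene in K562, and 1, 2 and 3 peaks over 0.405%, 1.38% and 1.8% in HL-60, Molm13 and OCI-AML3. Keeping as many of the strongest peaks as the shortest list holds left 11 peaks over 15.8% of the gene in K562 and 2 or 3 peaks in each AML line.

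Within the PVT1 body 2 sites were shared by all 4 lines, the promoter and a site about 314 kb downstream of the MYC TSS that spans MIR1207, another microRNA gene. The peak at MIR1207 was 1.02 kb wide in HL-60, 2.56 kb in Molm13 and 2.96 kb in OCI-AML3, and 9.52 kb in K562. Its fold was 3.42, 4.19 and 3.17 in those AML lines and 4.01 in K562. In K562 this was the strongest peak of the PVT1 body, at the 89.8th percentile, and in the AML lines it stood between the 43.2nd and the 59.2nd. A further site 181 kb downstream was shared by HL-60, OCI-AML3 and K562, and one at 175 kb by Molm13, OCI-AML3 and K562. A site at 74.6 kb was held by Molm13 and OCI-AML3 and by neither HL-60 nor K562. GENCODE lists 132 start sites for PVT1, so that peaks within the gene can lie at an internal start, and promoter and enhancer peaks were not separated there.

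CCDC26 (ENSG00000229140.12, chr8:128634199-129683770, minus strand) ends towards MYC, and its outermost TSS lies 1948 kb downstream of the MYC TSS. Its body held 10 peaks in HL-60, 32 in OCI-AML3 and 37 in Molm13, with 42 in K562. They covered 27.7 kb in HL-60, 121 kb in OCI-AML3 and 126.1 kb in Molm13, with 132 kb in K562. The share of the gene was 2.64% in HL-60, and 11.5%, 12.0% and 12.6% in OCI-AML3, Molm13 and K562. Here too, the low HL-60 values were not separated from its few peaks on the whole chromosome. With q-values below 0.001 the counts were 9, 8, 15 and 10 in HL-60, Molm13, OCI-AML3 and K562, over 2.61%, 8.09%, 9.83% and 8.65% of the gene. With the strongest peaks matched in number they were 10, 7, 5 and 15 for the same lines, over 2.64%, 7.96%, 6.86% and 10.2%. The lower number of peaks in HL-60 thus depended on the list, while its covered share was the lowest in each case. It ranked 363, 141, 238 and 269 among the 5157 long genes in HL-60, Molm13, OCI-AML3 and K562. In HL-60 it held 70.1% of all covered length of the 5 Mb.

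The peaks gathered in the 5′ part of the gene. The stretch from the first to the last site of CCDC26 shared by all 4 lines (chr8:129409678-129698993, 289 kb, bounds set after the peaks were seen) is 5.79% of the 5 Mb. It held 70.1% of the covered length in HL-60, 57.5% in OCI-AML3 and 63.5% in Molm13, with 38.6% in K562. All 10 HL-60 peaks of CCDC26 lay in it, as did 28 of 37 in Molm13, 19 of 32 in OCI-AML3 and 26 of 42 in K562. Peaks covered 40.8% of it in Molm13, 40.0% in OCI-AML3, 44.05% in K562 and 9.57% in HL-60.

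**Figure D3:**
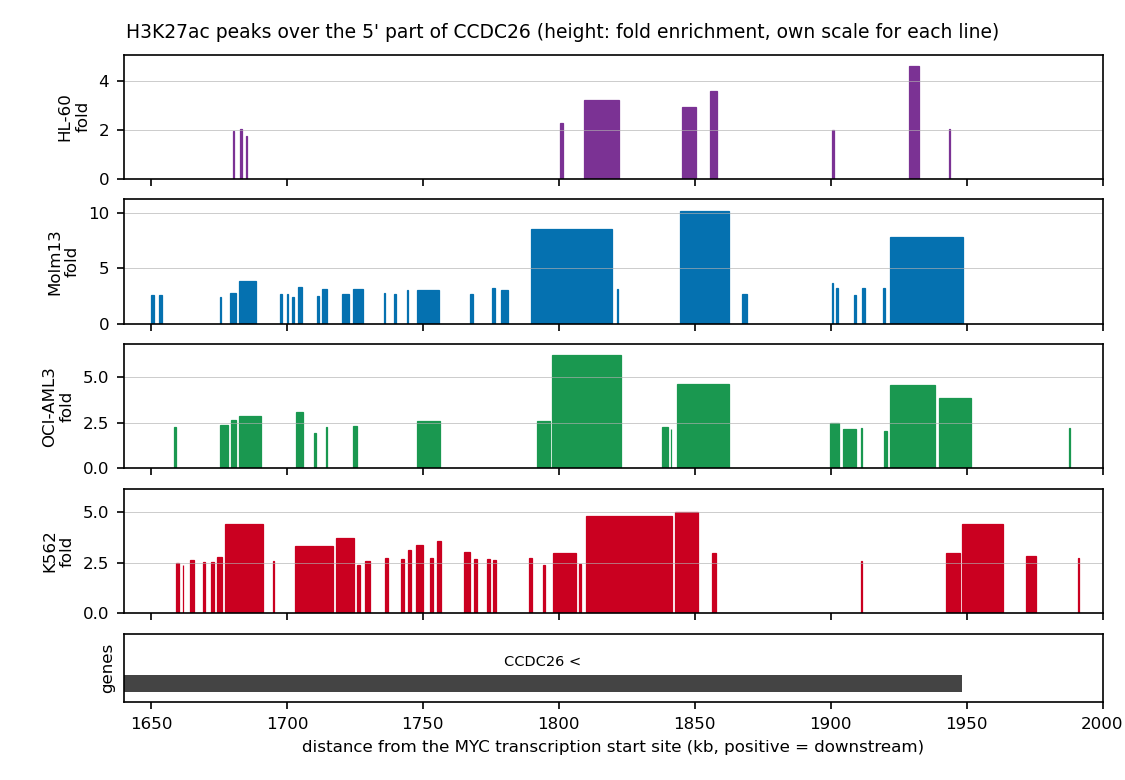
H3K27ac peaks over the 5′ part of CCDC26 by distance from the MYC TSS (x axis, kb) and fold enrichment (y axis, own scale in each panel). Wide peaks of Molm13 and OCI-AML3 overlap near 1810, 1853 and 1930 kb, K562 has its widest peak near 1826 kb and a gap around 1930 kb, and the HL-60 peaks lie inside those of OCI-AML3.

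The widest peaks of the 5 Mb lay here in each line. In Molm13 the widest was 29.8 kb with a fold of 8.54, and it ranked 7 by width in the whole list. OCI-AML3 had one of 25.4 kb with a fold of 6.18, at rank 28 by width and at the 99.3rd percentile of fold. In K562 the widest was 31.7 kb with a fold of 4.79, also at rank 7. The widest HL-60 peak, of 12.7 kb, had a fold of 3.23 and ranked 6 by width in a list with 16 peaks of 10 kb or more. All of them overlapped one another in a merged region of 52.8 kb (chr8:129524471-129577235), the longest of the regions shared by the 4 lines.

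The next shared region (chr8:129578292-129598110) held the strongest Molm13 peak of the 5 Mb. Its fold was 10.2 (97.01st percentile), over 18.2 kb. OCI-AML3 had a peak of almost the same extent there, 18.9 kb wide with a fold of 4.59 (90.3rd percentile). In K562 the site held an 8.54 kb peak with a fold of 5.00 (99.0th percentile), and a smaller one. HL-60 had peaks of 5.00 kb and 2.67 kb, with folds of 2.96 and 3.59.

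At the 5′ end of CCDC26 the lines used different stretches of one merged region (chr8:129657095-129698993). Molm13 had 1 peak of 27.1 kb with a fold of 7.84 that reached over the outermost TSS. OCI-AML3 had a peak of 16.5 kb with a fold of 4.59 and another of 11.6 kb with a fold of 3.84, the latter over the TSS. K562 had no peak over the part near 1930 kb where OCI-AML3 had its 16.5 kb peak. It had a peak of 5.08 kb with a fold of 2.96 (56.6th percentile) next to it, and a peak of 15.2 kb with a fold of 4.39 (95.4th percentile) that began 43 bp from the outermost TSS and extended away from the gene. In HL-60 no peak lay within 500 bp of that TSS, and the nearest, 0.402 kb wide, was 4.41 kb away. The strongest HL-60 peak of the 5 Mb (3.81 kb, fold 4.63, 72.9th percentile) lay inside the Molm13 and OCI-AML3 peaks at about 1931 kb, where K562 had none.

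The part of the cluster nearest to MYC (chr8:129409678-129426642) was shared by all 4 lines as well. K562 had a 13.9 kb peak there with a fold of 4.39, at the 95.4th percentile. Molm13 and OCI-AML3 had peaks with folds of up to 3.88 (52.1st percentile) and 2.85 (44.6th percentile). HL-60 had 3 peaks of 0.242 kb to 0.677 kb with folds of up to 2.04, at percentiles of 0.428 or lower. The next sites, 1703 kb and 1718 kb from the MYC TSS, were held by Molm13, OCI-AML3 and K562, and were covered by K562 peaks of 14.1 kb and 6.76 kb.

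Joining peaks away from TSSs within 10 kb of each other gave 8 clusters in HL-60, 37 in OCI-AML3 and 28 in Molm13, with 46 in K562. The widest peak of each line lay within 500 bp of an annotated CCDC26 TSS and was therefore left out of the joining. Cluster lengths thus do not include the widest peaks. The longest cluster lay in CCDC26 in every line. It was 13.0 kb long with 2 peaks in HL-60, 38.9 kb with 5 peaks in OCI-AML3 and 69.2 kb with 13 peaks in Molm13. In K562 it was 82.2 kb long with 14 peaks. The Molm13 and K562 clusters overlapped between 1695 kb and 1744 kb from the MYC TSS, towards MYC from the widest peaks. Peaks covered 30.3% of the Molm13 cluster and 43.6% of the K562 cluster. Joined within 5 kb, the longest clusters were 5.0 kb, 24.8 kb, 21.4 kb and 27.8 kb in HL-60, Molm13, OCI-AML3 and K562. Joined within 20 kb, they were 67.1 kb in OCI-AML3 and 149 kb in K562, and stayed at 13.0 kb in HL-60 and 69.2 kb in Molm13.

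Gene starts with H3K27ac were counted over the whole stretch, the 3 genes included. Of 69 annotated genes with a TSS in the stretch, 9 had a TSS peak in HL-60 (13.0%, against 20% of all 62663 annotated genes). In Molm13 it was 14 genes (20.3%, against 25.5%), in OCI-AML3 16 (23.2%, against 27.5%) and in K562 18 (26.1%, against 27%). Of the 7 protein-coding genes, MYC and CYRIB had a TSS peak in all lines. CYRIB, which encodes a regulator of the small GTPase RAC1, has 28 annotated start sites, and its strongest TSS peak was not at the same site in every line. That peak had a fold of 3.91 in HL-60 (59.2nd percentile), 5.82 in Molm13 (79.4th), 3.30 in OCI-AML3 (63.4th) and 4.50 in K562 (96.4th). ASAP1, a GTPase-activating protein for ARF, had a TSS peak in Molm13 (fold 3.83) and OCI-AML3 (fold 2.87), and GSDMC, a gasdermin gene, in K562 (fold 2.66). LRATD2, POU5F1B and ADCY8 had none in any line.

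Some non-coding starts were specific to a set of lines in these lists. LINC00861 (fold 3.82), LINC00824 (fold 3.69), LINC02912 (fold 2.69) and MIR1205 (fold 3.56) had a TSS peak in K562 and in no AML line. LINC02912 and MIR1205 lie within the PVT1 body, and their peaks are among the K562 peaks counted there. CASC19, upstream of MYC, had one in Molm13 (fold 3.16) and OCI-AML3 (fold 2.16). MIR3686, inside CCDC26, had one in Molm13 (fold 3.01), OCI-AML3 (fold 2.62) and K562 (fold 3.35). MIR5194 had one in Molm13 (fold 5.09) and OCI-AML3 (fold 3.74). The remaining genes with a TSS peak were unnamed transcripts.

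Downstream of CCDC26, within CYRIB, lay the strongest K562 peak of the 5 Mb. It had a fold of 5.58 over 4.43 kb, 2258 kb from the MYC TSS, and ranked 59 of the K562 list (99.8th percentile). Molm13 and OCI-AML3 had peaks at the same site with folds of 5.16 and 3.47, and HL-60 had none. The third strongest Molm13 peak of the stretch (fold 8.34, 92.9th percentile) lay about 2223 kb from the MYC TSS and was present in all 4 lines, with folds of 3.83 in HL-60, 4.07 in OCI-AML3 and 2.95 in K562. Upstream of MYC, the 1735 kb held 1 peak in HL-60, 8 in OCI-AML3 and 4 in Molm13, with 6 in K562. Of these, 2 sites were held by both Molm13 and OCI-AML3, and none of the K562 peaks was overlapped by an AML peak.

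**Figure D4:**
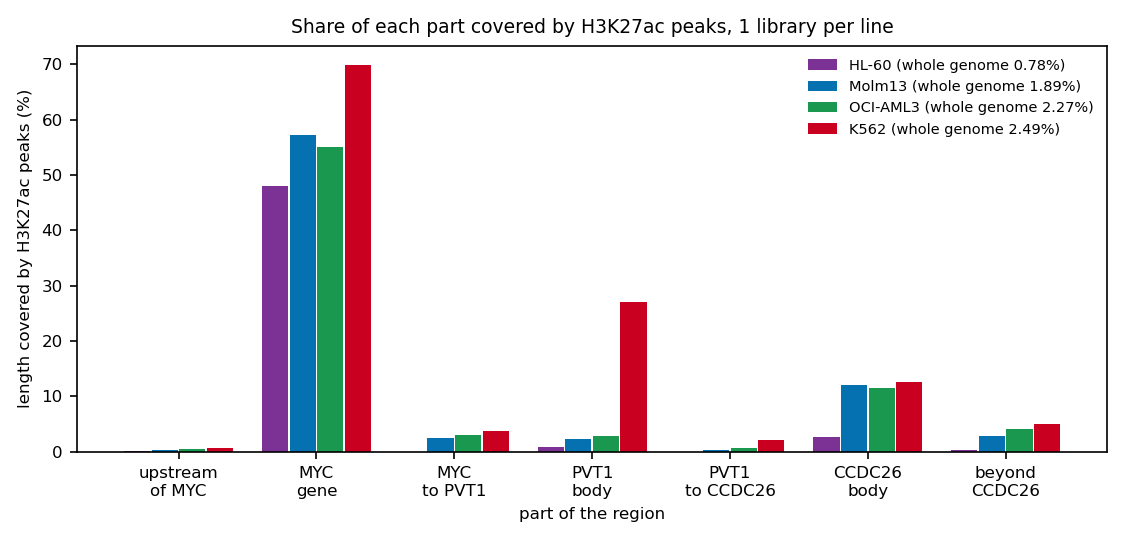
Percent of each part of the 5 Mb covered by H3K27ac peaks (y axis) in HL-60, Molm13, OCI-AML3 and K562, 1 library per line, so without error bars. The PVT1 body is covered to 27.1% in K562 and to 0.920% to 2.83% in the AML lines, while the CCDC26 body is covered to 11.5% to 12.6% in Molm13, OCI-AML3 and K562.

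The share of peaks found in another line was highest in HL-60, the shortest list, and lowest in K562. In HL-60, 17 of 18 peaks were overlapped by at least 1 bp in another line (94.4%, Wilson 95% interval 74.2% to 99.0%), against 69.3% of the whole list. In Molm13 it was 51 of 71 (71.8%, 60.5% to 81.0%) against 73%, and in OCI-AML3 52 of 79 (65.8%, 54.8% to 75.3%) against 70.9%. In K562, 41 of 118 peaks were shared (34.7%, 26.8% to 43.7%) against 44%. Peaks overlapped in all 3 other lines made up 14 of 18 in HL-60 against 43.5% of the list, 12 of 71 in Molm13 against 25.2%, 11 of 79 in OCI-AML3 against 23.7%, and 12 of 118 in K562 against 23.5%. With the strongest peaks matched in number the share found in another line was 94.4%, 87%, 90% and 39.6% for HL-60, Molm13, OCI-AML3 and K562. The intervals cover counting error only, and neighbouring peaks of 1 library are not replicates.

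Merging the peaks of the 4 lines gave 171 regions, of which 10 were held by all 4 lines, 77 by K562 alone, 19 by K562 and 1 or 2 AML lines, 17 by 2 or 3 AML lines without K562, and 48 by a single AML line. These are 5.85%, 45.0%, 11.1%, 9.94% and 28.1%, against 11.7%, 28%, 9.27%, 15.1% and 35.9% of the 74697 regions of the genome. A region merged from several lists is longer by construction. The 10 regions of all lines spanned 164 kb and the 77 K562 regions 145 kb. Of the 10, 1 was at MYC, 2 were in PVT1, 4 in CCDC26 and 3 beyond it, within CYRIB. Of the 77 K562 regions, 33 lay in the PVT1 body and 21 in the CCDC26 body.

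The overlap of covered sequence ran highest between Molm13 and OCI-AML3. In the CCDC26 body they shared 94.3 kb, which is 74.8% of the Molm13 and 78.2% of the OCI-AML3 length. K562 and OCI-AML3 shared 60.5 kb there, or 45.8% of the K562 and 50.1% of the OCI-AML3 length. All 27.7 kb of HL-60 cover in CCDC26 lay within OCI-AML3 peaks, 91.6% lay within Molm13 peaks and 76.9% within K562 peaks. In the PVT1 body Molm13 and OCI-AML3 shared 6.20 kb, and 4.40% and 6.82% of the K562 cover overlapped a Molm13 or an OCI-AML3 peak.

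Fold enrichment and q-value diverged at MYC and CCDC26 in HL-60. For a given fold, the −log10 q-value of a peak grows with the number of reads behind it, so each peak was set beside the peaks of its own list with a fold within 5% of its own. This measure was added after the peaks were seen. The HL-60 MYC peak had a −log10 q of 27.9, which is 8.76 times the median of 2009 peaks of like fold. Of the CCDC26 peaks, those with folds of 3.23, 2.96, 3.59 and 4.63 had −log10 q of 22.4, 17.3, 25.1 and 44.9. They reached 13.4, 13.9, 10.2 and 8.71 times the median at like fold. The 3 HL-60 peaks in PVT1 stood at 0.887 to 0.925 times that median, and the 3 beyond CCDC26 at 0.896 to 1.03 times. The other 6 HL-60 peaks of CCDC26 stood at 1.00 to 3.10 times it, so high values were found at MYC and at 4 of the 10 CCDC26 peaks. These 5 peaks were also wide, at the 92.99th to the 99.97th percentile of width in the list.

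In the whole HL-60 list 8 peaks, or 0.0385%, reached at least 5 times the median at like fold, and 5 of these lay in the 5 Mb. Of the other 3, 2 were on the same chromosome 2.31 Mb and 2.23 Mb upstream of the MYC TSS, the former at TRIB1, and 1 was on chromosome 2. Above the 95th percentile at like fold were 6 of the 18 HL-60 peaks against 3.93% of the list, and 3 when compared with peaks of like width as well, where as few as 1 peak was left to compare with. In Molm13 41 of 71 peaks and in OCI-AML3 38 of 79 passed that percentile, against 4.45% and 4.58% of the lists, and in K562 1 of 118 against 4.34%. In Molm13 and OCI-AML3 the pattern held for the whole chromosome, with 844 of 1657 and 802 of 2359 peaks of chromosome 8. In HL-60 it was 8 of 357, of which 6 lay in the 5 Mb.

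**Figure D5:**
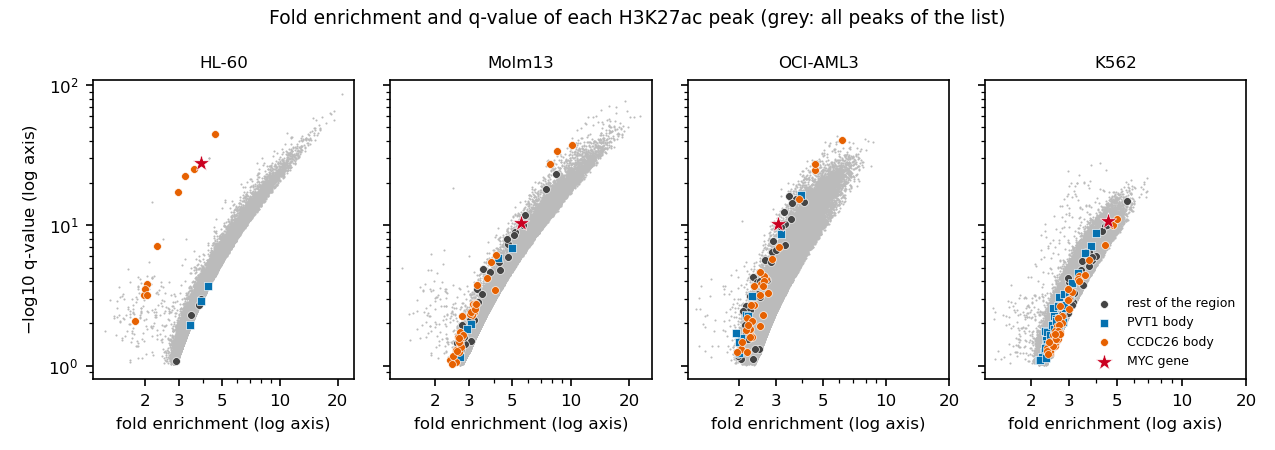
Fold enrichment (x axis, log scale) and −log10 q-value (y axis, log scale) of each H3K27ac peak by line, with all peaks of the list in grey and those of the 5 Mb in colour. In HL-60 the MYC peak, with −log10 q of 27.9, and 4 of the 10 CCDC26 peaks lie far above the grey band, while the PVT1 peaks lie on it.

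HL-60 also held peaks of unusually low fold in CCDC26. Of its 10 peaks there, 6 had a fold below 2.73, the 1st percentile of the list, with folds of 1.77 to 2.30 and −log10 q of 2.07 to 7.10. They lay at sites where OCI-AML3 and Molm13 had peaks too. None of the other 8 HL-60 peaks of the 5 Mb had so low a fold, which 208 peaks of the whole list had. Of the K562 peaks of the 5 Mb, 1 of 118 was below the 1st percentile of its list, and in Molm13 and OCI-AML3 it was 15 of 71 and 12 of 79. On the whole of chromosome 8 it was 15 of 357 in HL-60, 149 of 1657 in Molm13, 190 of 2359 in OCI-AML3 and 1 of 1530 in K562. Such peaks were thus not confined to the stretch in the AML lines.

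The genes whose promoters ranked most like MYC were found by the largest difference in percentile of TSS peak fold over the 4 lines, among the 8106 protein-coding genes with a TSS peak in every line. The nearest was MEX3B, which encodes an RNA-binding protein, with a largest difference of 3.56 percentile points. GRB10, an adaptor of growth factor receptors, followed with 4.45, TAP1, a peptide transporter of antigen presentation, with 5.199, CENPA, the centromeric histone H3, with 5.22, and CDC20, an activator of the anaphase-promoting complex, with 5.39. They were picked for ranks near those of MYC, so their ranks above the 91st percentile in K562 and below the 65th in HL-60 and OCI-AML3 follow from that choice. The likeness rests on 4 libraries.

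Among the 13 genes of the MYC, MAX and MLX network, 10 had a TSS peak in HL-60 and 12 in each other line. MYCN had none in any line, and MYCL and MLXIPL had none in HL-60. MAX, the obligate partner of MYC, stood at the 55.5th percentile in HL-60, the 92.0th in OCI-AML3 and the 74.2nd in Molm13, with the 92.6th in K562. In HL-60 MYC stood at the 59.1st percentile of fold, below every other network gene with a TSS peak except MAX. MXI1, an antagonist of MYC, had the highest there with the 98.9th, and MNT, another antagonist, stood at the 94.6th. By q-value the HL-60 MYC peak stood at the 99.1st percentile. In K562 MYC had the highest percentile of the network, ahead of MAX, MXI1 at the 91.1st and MXD1 at the 90.8th. MGA led in Molm13 with the 99.0th and MNT in OCI-AML3 with the 97.5th.

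Of 12 MYC cofactors and regulators, 11 had a TSS peak in HL-60 and Molm13 and 12 in OCI-AML3 and K562. PIM1, a kinase that stabilises MYC, had none in HL-60 and stood at the 98.6th percentile in Molm13, the 69.2nd in OCI-AML3 and the 98.8th in K562, where its peak was 26.96 kb wide. Of 16 textbook MYC target genes, 15 had a TSS peak in each line, and TERT, the catalytic subunit of telomerase, had none in any. Against the 44.7% to 57.7% of all protein-coding genes given above, these lists were widely marked. They were chosen with earlier results of these data known, and many of their genes are active in most dividing cells.

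dCas9 in K562 was directed to LTR2B copies by 4 sgRNAs, whose sequences were listed by the study. They are shown because the comparison of guide sites rests on them, each 20 nt, 5′ to 3′, with the 10 bases next to the NGG motif in capitals.
LTR2B sgRNA 1: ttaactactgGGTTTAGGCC
LTR2B sgRNA 2: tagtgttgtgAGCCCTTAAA
LTR2B sgRNA 3: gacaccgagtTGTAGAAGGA
LTR2B sgRNA 4: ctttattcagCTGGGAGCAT
Allowing up to 3 mismatches on both strands beside an NGG, 0 sites of the 4 sgRNAs lay in the 5 Mb, against 111 on the whole chromosome. No dCas9 peak lay there either, against 14 on the chromosome. The nearest dCas9 peak was 11.4 Mb downstream of the MYC TSS (435 bp, fold 14.1, with 3 guide sites), and no H3K27ac peak of the 4 lines overlapped it. The nearest upstream lay 21.2 Mb away. H3K27ac peaks of K562 cells with the sgRNAs were not analysed here, so no change of the mark at MYC is given.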

How the data were processed

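Samples were grouped by their titles, and 5 of 19 had peak lists that were analysed. The other 14 (inputs, H3K9me3, H3K27ac with LTR2B sgRNAs and empty-vector dCas9) were not analysed here. Per the study's methods and the labels, the authors trimmed reads with Trim Galore (0.4.5) and aligned them to hg38 with Bowtie2. The Bowtie2 version is 2.3.4 in the submitters' processing notes, and the study's methods give a different one. Uniquely mapped reads were kept, and peaks were called with MACS2 (2.1.1) at a q-value of 0.05, in broad mode for histone marks. The control library is not given in the sources used here. The deposited lists give each peak a fold enrichment, which is a ratio to the local background. The deposited lists also hold −log10 p-values, −log10 q-values, and a score that the caller derived from the q-value. The dCas9 list also holds a summit offset per the deposited file. Read depth is unknown, and no interval on reads could be given.

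From these lists, peaks, gene bodies and TSSs were intersected with GENCODE release 44 on hg38, whose contig names and lengths match the lists except for 6 peak ends beyond a contig. Coordinates are 1-based. Positional shares used chromosomes 1 to 22, X and Y. Overlap required 1 bp, a TSS peak lay within 500 bp of any annotated TSS, and peaks were assigned to gene bodies by their midpoint. No test was run. Shares carry Wilson 95% intervals. Procedures were tested on simulated data. Named were the 3 members, each other gene of the stretch with a TSS peak (unnamed transcripts were counted only), the 3 strongest and the widest peaks of each line, and the 5 genes most like MYC. The members, gene lists and tests were chosen with earlier results of these data known. The ranks of gene bodies, the bounds within CCDC26, the q-value at like fold and the alternatives for the gene bodies were chosen after the values were seen. Scripts ran in Python 3.11.15 with pandas 2.3.3, NumPy 2.4.6, matplotlib 3.10.9 and SciPy 1.17.1. The values of 1 gene of the cofactor list are not reported here.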

Additional observations from a re-analysis of the deposited data

How the results depend on the processing

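Of 230 comparisons of a value with an alternative, 167 stayed within 1.5 times (counts and lengths), within the Wilson interval (shares) or within 10 points (percentiles). Merging peaks within 1 kb was run for peak counts, covered lengths, shared shares, genes with a TSS peak, regions by line and the PVT1 and CCDC26 bodies, and moved none of these. With q-values below 0.001 the stretch held 11 peaks in HL-60, 41 in OCI-AML3 and 26 in Molm13, with 39 in K562. The K562 cover fell to 218 kb, and the shared share rose to 100% in HL-60, 96.2% in Molm13 and 56.4% in K562. Regions by line became 6 for all 4 lines, 17 for K562 alone, 7 for AML lines without K562 and 12 for a single AML line. With as many of the strongest peaks as the shortest list holds, the counts were 53 in K562, 20 in OCI-AML3 and 23 in Molm13, the covers of Molm13 and OCI-AML3 were 121 kb and 120 kb, and their shared shares 87% and 90%. Regions by line became 10 for K562 with AML lines, 32 for K562 alone, 5 for AML lines without K562 and 6 for a single AML line. When a peak had to be covered over 50%, the shared share was 53.2% in OCI-AML3 and 22% in K562. With at most 5 mismatches 15 guide sites lay in the stretch. Compared with peaks of like fold and also of like width, an alternative added after the data were seen, 3 HL-60 peaks passed the 95th percentile of −log10 q in place of 6, where as few as 1 peak was left to compare with, and 0 K562 peaks in place of 1. The causes of these changes were not tested beyond the smaller number of peaks that the stricter lists hold. No paired analysis was possible because no result came from a test and replicates were lacking (1 library per group). Unknown depth, 1 library per line and the loss of reads that map to several places limit all comparisons between lines.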
